A study of Mus musculus with 3 samples.

Results

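Immediate early genes are the genes that neurons switch on within minutes of synaptic activity, without first making new protein. The 10 genes described here were taken by symbol from a table of 54532 genes: the AP-1 subunits Fos, Fosb and Junb, the zinc finger factors Egr1, Egr2, Egr3 and Egr4, the neuronal factor Npas4, the nuclear receptor Nr4a1, and the synaptic protein gene Arc. All 10 were in the table once. They were measured by RNA-seq of the hippocampus in 3 libraries, 1 per genotype, from mice aged 10 months on a C57BL/6 background. The genotypes were wild type (WT), PS19, and PS19 with Zbp1+-, written here as PS19 Zbp1+/-. PS19 mice carry a mutant human tau transgene under the mouse Prnp promoter, which is active well beyond neurons, and they develop tau pathology. Both PS19 groups carry the transgene, and in the second, 1 copy of Zbp1, a sensor of left-handed nucleic acids, is lost. The labels give neither the sex of the animals nor how many went into a library. With 1 library per genotype there is no replicate error and no p-value, and each difference compares libraries, not conditions.

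Synaptic calcium entry and kinase cascades act on factors already bound at the promoters of these genes, chiefly CREB at the cAMP response element (CRE) and serum response factor at the serum response element. The first wave encodes transcription factors, which go on to switch on slower genes for secreted and synaptic proteins. Arc is the exception in the set: its protein acts at the synapse itself, where it promotes the removal of AMPA receptors. In the hippocampus the transcripts are used as a record of recent neuronal activity, and many of them also respond to growth factors and stress in other cells.

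Most members were lower than in WT in the PS19 libraries, while Fos, Npas4 and Egr2 had their largest differences in PS19 Zbp1+/-. Promoter sequence is shown as background, and its part in these differences was not tested. RefSeq promoter windows (GRCm38.p6, 250 bases before to 50 bases after a transcription start) were at hand for 7 members, in 11 windows, with Arc, Egr1 and Egr3 not in the table. The first 5 bases of the CRE, TGACG, searched on both strands, were found in all 7 members and in 23.0% of 27025 genes with a window. The full CRE, TGACGTCA, which contains that core, was in 0 of 7 members and in 2.03% of genes. The serum response element, a CArG box, was in 1 of 7 members, Egr2, and in 1.81% of genes. The AP-1 site TGANTCA was in 0 of 7 and 8.97% of genes, the Egr site GCGNGGGCG in 2 of 7 (Fosb and Nr4a1) and 6.27%, and the TATA box letters TATAAA in 2 of 7 (Fos and Junb) and 15.7%. The TATAAA match lay at -33 to -28 from the start in Fos. In Junb it lay at 1 to 6 from the RefSeq start at 84978748. On the minus strand that is upstream of the annotated start of the gene, 84978718, so the match lies before the latter. Each match is a match of letters and not a measured binding site. Sequence outside the windows was not searched, so an element there would be missed. In the stretches below, capitals mark TGACG on either strand (CGTCA on the opposite one) and, in Egr2, the serum response element.
Fos: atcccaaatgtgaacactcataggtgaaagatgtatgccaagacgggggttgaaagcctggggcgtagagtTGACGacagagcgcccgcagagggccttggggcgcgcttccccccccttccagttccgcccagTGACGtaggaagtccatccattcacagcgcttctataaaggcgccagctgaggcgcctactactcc
Junb: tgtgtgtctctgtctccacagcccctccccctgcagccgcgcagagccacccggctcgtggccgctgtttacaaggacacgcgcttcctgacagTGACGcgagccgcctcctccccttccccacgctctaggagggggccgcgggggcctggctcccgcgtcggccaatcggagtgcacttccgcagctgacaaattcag
Egr4: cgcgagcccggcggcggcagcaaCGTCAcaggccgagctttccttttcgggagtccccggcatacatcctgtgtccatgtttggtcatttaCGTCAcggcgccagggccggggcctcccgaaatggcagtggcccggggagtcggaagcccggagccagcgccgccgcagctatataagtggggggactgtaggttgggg
Nr4a1: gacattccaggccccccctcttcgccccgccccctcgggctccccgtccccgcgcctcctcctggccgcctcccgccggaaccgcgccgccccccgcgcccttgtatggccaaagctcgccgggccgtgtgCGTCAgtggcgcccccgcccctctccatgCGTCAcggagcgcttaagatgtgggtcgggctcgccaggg
Fosb: gcatggagttgcgggTGACGcaagcgcggg
Egr2: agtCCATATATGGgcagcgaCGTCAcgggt
Npas4: gttcgaCGTCAcgggaTGACGtcggaagtc

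The first 4 stretches are the 200 bases before the start, 5′ to 3′: chr12:85473690-85473889 on the plus strand for Fos, chr8:84978749-84978948 on the minus strand for Junb, chr6:85513590-85513789 on the minus strand for Egr4 and chr15:101266646-101266845 on the plus strand for Nr4a1. The other 3 are 30 bases around a match, the Npas4 one within an annotated exon: chr7:19310091-19310120 (minus) for Fosb, chr10:67537794-67537823 (plus) for Egr2 and chr19:4990127-4990156 (minus) for Npas4. Over the whole windows, TGACG was matched 4 times in Nr4a1, 2 times each in Fos, Egr4 and Npas4, and 1 time each in Fosb and Junb. In Npas4 the pair of matches lies on opposite strands, at positions -179 to -165 from the start.

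**Figure D1:**
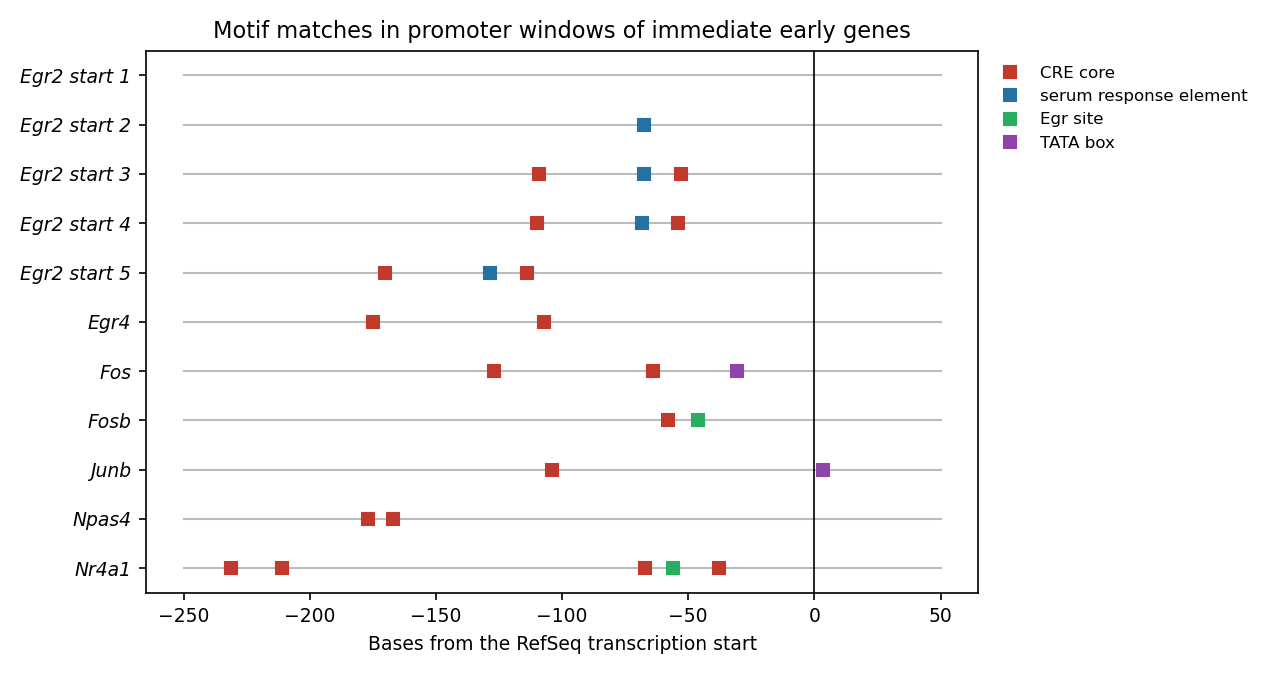
Each line is 1 RefSeq promoter window, from 250 bases before to 50 bases after the transcription start, and each square is a motif match on either strand at its distance from the start. Every gene drawn has at least 1 match to the CRE core, Egr2 in 3 of its 5 windows. Within these windows only Egr2 had a match to the serum response element, and sequence outside them was not searched.

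Recovered whole reads summed to between 16400328 and 17109734 per library. Zbp1 itself was at 5 reads for WT, 91 for PS19 and 0 for PS19 Zbp1+/-, although a heterozygote keeps 1 copy; a count of 0 allows an FPKM of up to 0.0537 there. The PS19 Zbp1+/- library stood apart in 3 ways that touch every comparison that uses it. Xist reads numbered 11062 for WT, 13350 for PS19 and 0 for PS19 Zbp1+/-, where the Y-linked Ddx3y had 711, so loss of a Zbp1 copy and the sex of the animals cannot be told apart. Choroid plexus markers were nearly gone there: the summed FPKM of Ttr, Folr1, Clic6, Kcnj13 and Otx2 came to 3096 for WT, 1889 for PS19 and 8.17 for PS19 Zbp1+/-, all 5 above 0. Of 357 genes with 8 to 12 reads in both other libraries, 16.0% had no read there, against 0.41% in the same count for PS19 and 2.14% for WT. The comparison of PS19 with WT does not use that library.

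The hippocampus expressed all 10 members in every library. FPKM divides fragments by gene length and by library size, so that levels of different genes can be set side by side. Among WT levels Arc was highest at 56.3 FPKM, followed by Junb at 47.9, Egr1 at 44.1, Egr4 at 33.9, Egr3 at 32.1, Nr4a1 at 31.7, Fos at 11.7, Npas4 at 6.69, Fosb at 3.66 and Egr2 at 1.79. The highest was thus 31.4-fold above the lowest. Neighbours in that order differed beyond counting error except Egr4 from Egr3 and Egr3 from Nr4a1, whose ratios of 1.06 (exact Clopper-Pearson 95% interval 0.988 to 1.13) and 1.01 (0.952 to 1.07) include 1. In PS19 the pairs within counting error were Egr1 and Junb, and Egr3 and Egr4. In PS19 Zbp1+/- they were Nr4a1 and Egr4, Egr4 and Egr3, and Fosb and Npas4. Arc led and Egr2 was last in all 3 libraries. Npas4 changed place with Fosb in PS19 Zbp1+/-. The range between the highest and the lowest was 29-fold in PS19 and 50.9-fold in PS19 Zbp1+/-.

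**Figure D2:**
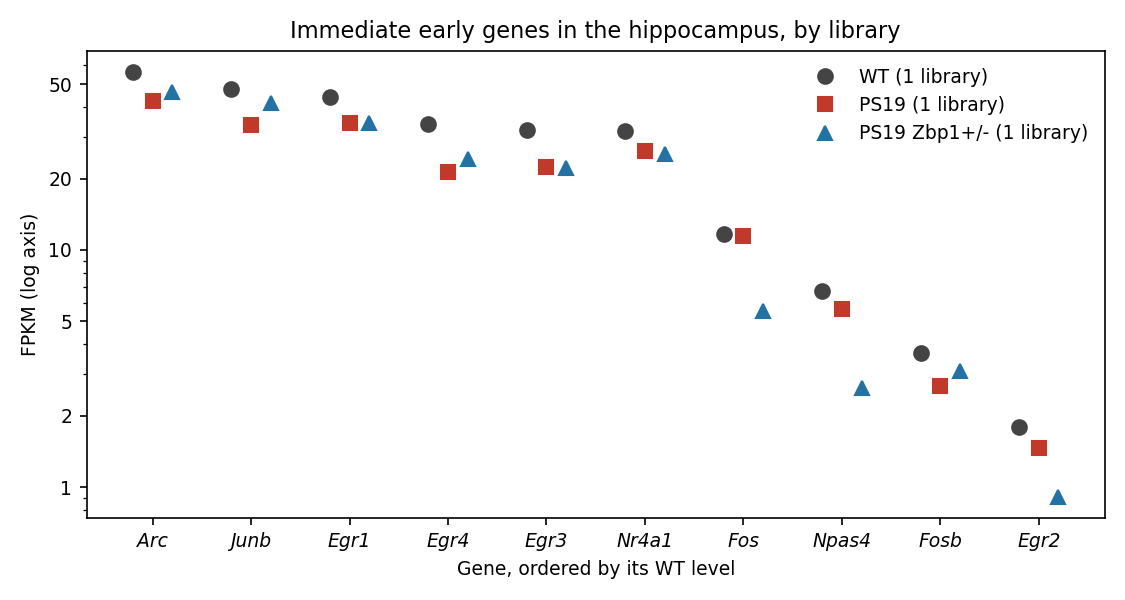
FPKM on a log axis for the 10 immediate early genes, ordered by their WT level, with 1 point per library and no error bars since each genotype has 1 library. WT is the highest point for all 10 genes, and PS19 Zbp1+/- lies well below PS19 for Fos, Npas4 and Egr2, at FPKM values of 5.53, 2.62 and 0.911.

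Most immediate early transcripts were lower in PS19 than in WT. Summed over the members, reads went from 15250 in WT to 11480 in PS19, a ratio per library size of 0.751 (exact 95% interval 0.733 to 0.77), or 0.769 (0.75 to 0.788) per total reads. All 10 members were below WT as deposited, with read ratios between 0.631 (Egr4) and 0.979 (Fos), a median of 0.766, and intervals wholly below 1 for 8 of them. Scaling by total reads or to TPM put Fos above WT, at log2 differences of 0.002 and 0.096, and left the other 9 below it. On the log2(FPKM + 1) scale, 6 members were lower by at least 0.3 log2 units and 0 were higher by that much, whereas 16.3% of the 12703 protein-coding genes tested were so much lower and 16% so much higher. With TPM it was 4 members lower and 0 higher, against 9.82% and 28.1% of genes. None of the 10 was lower by a full log2 unit (2-fold), as 0.291% of genes were. The median difference was -0.35 for the members and -0.03 for all genes tested. Level matters for that background. Of 1840 genes at a WT FPKM of 20 to 60, where 6 members lie, 29.3% were lower by at least 0.3 and the median was -0.18, while 5 of those 6 members were lower and their median was -0.45. Of 8011 genes at 1 to 12, 10.9% were lower and the median was 0.02, beside 1 of 4 members and a median of -0.20. Leaving out any 1 member kept the median of the set at -0.35.

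Between PS19 Zbp1+/- and PS19 the members differed in both directions. They summed to 10683 reads, 1.02 times PS19 per library size as deposited (95% interval 0.99 to 1.04) but 0.892 times PS19 per total reads (0.869 to 0.916), so whether the sum was level or lower depends on the scaling. Against WT the sum was 0.764 (0.745 to 0.783) as deposited and 0.686 (0.669 to 0.703) per total reads. Against PS19, 3 members were lower by at least 0.3 log2 units, namely Fos, Npas4 and Egr2, and 1 was higher, Junb at 0.31, which drops to 0.12 with total reads and 0.03 with TPM. The shares of all 12772 genes tested were 23.9% lower and 25.9% higher, so the 3 lower members are near that background and the 1 higher member is under it. With total reads 3 members were lower and 0 higher, against 34.4% and 15.0% of genes, and with TPM 4 were lower and 0 higher, against 44.1% and 12.1%. As deposited, on the log2(FPKM + 1) scale, 0 of the 10 were lower by 1 log2 unit, against 5.16% of genes, although the pseudocount shrinks Fos and Npas4, whose read ratios were 0.482 and 0.466. Both passed that limit with total reads, against 6.7% of genes, and with TPM, against 11.7%. The median difference was -0.003 for the members and 0.04 for all genes. Of 8515 genes at a PS19 FPKM of 1 to 12, 28.8% were lower by at least 0.3 and the median was -0.04, beside 3 of the 4 members at that level and a median of -0.62. Of 1809 genes at 20 to 60, 13.8% were lower and 39.7% higher with a median of 0.20, beside 0 of 6 members lower and a median of 0.06. Against WT, 7 of the 10 were lower by at least 0.3 and 0 were higher, against 19.5% and 22.1% of 12436 genes. Scaling by total reads made it 10 of 10, against 30.3% lower and 13.4% higher, and TPM made it 10 of 10, against 33.9% and 15.4%. Npas4 was lower by 1 log2 unit as deposited, against 2.28% of genes, and Fos joined it with total reads (2.99% of genes) and with TPM (5.03%). The median was -0.41 for the members and 0.01 for all genes, and intervals lay wholly below 1 for all 10. Since PS19 Zbp1+/- and PS19 are both set against the same WT library, the 2 comparisons with WT are not independent of each other.

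**Figure D3:**
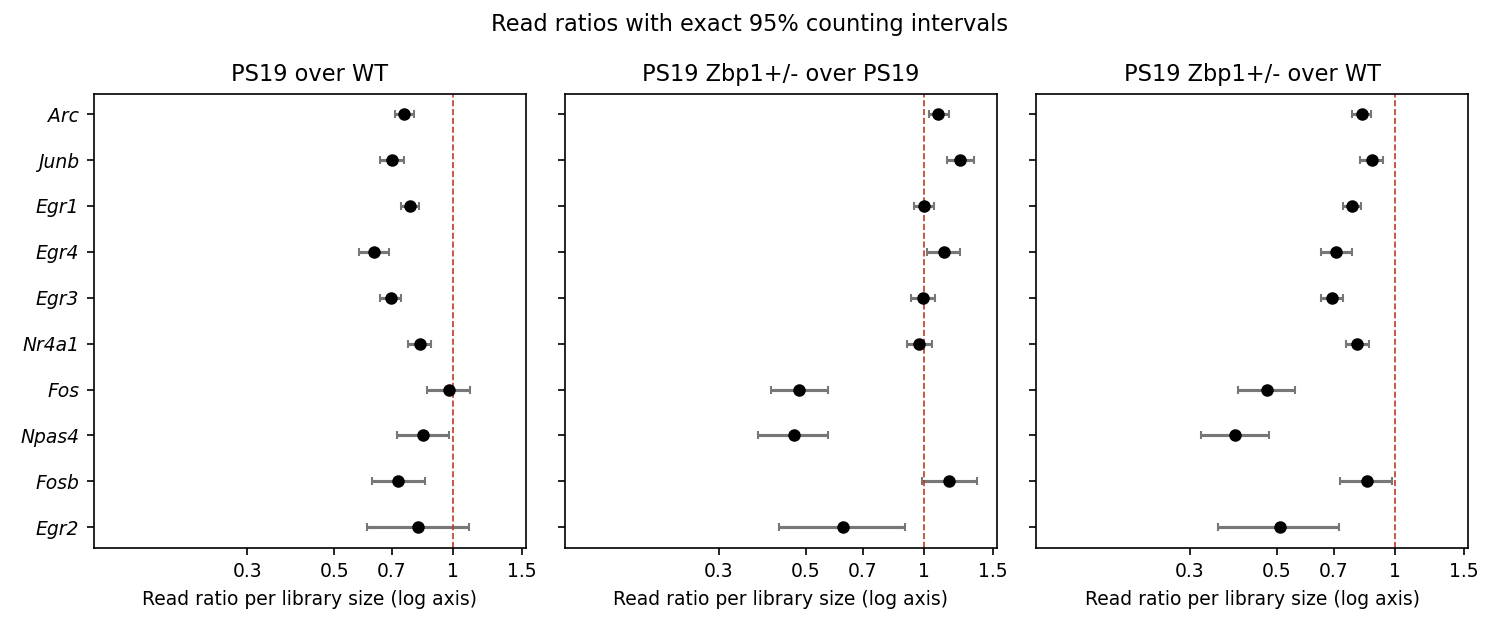
Read ratios per library size on a log axis for the 10 genes, with exact 95% intervals that cover counting error only, for PS19 over WT, PS19 Zbp1+/- over PS19, and PS19 Zbp1+/- over WT. In the left panel all 10 points lie left of 1, with the intervals of Fos and Egr2 reaching past it, in the middle panel Fos (0.482), Npas4 (0.466) and Egr2 (0.622) stand apart from the rest, and in the right panel all 10 intervals lie below 1.

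Fos, Fosb and Junb encode basic leucine zipper proteins that pair, Fos and FosB with a Jun partner, to form AP-1. Fos (ENSMUSG00000021250; GRCm38 chromosome 12, 85473890 to 85477273, plus strand) gave 476 reads for WT, 467 for PS19 and 206 for PS19 Zbp1+/-, or FPKM levels of 11.7, 11.5 and 5.53. No difference between WT and PS19 was detectable beyond counting error, with a ratio of 0.979 (95% interval 0.86 to 1.11), and the PS19 Zbp1+/- library was the low one, with ratios of 0.482 (0.407 to 0.569) to PS19 and 0.472 (0.399 to 0.557) to WT. It ranked 767th from the lowest of 12772 genes against PS19 and 311th of 12436 against WT. Among 1922 protein-coding genes with 300 to 500 reads in PS19, 9.52% had a ratio of 0.5 or less in PS19 Zbp1+/-, Fos and Npas4 included. Among 1848 genes with as many reads in WT, 3.84% had so low a ratio to WT in PS19 Zbp1+/-, again with Fos and Npas4. In PS19 0.216% of those 1848 genes had so low a ratio to WT, without Fos or Npas4.

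Fosb (ENSMUSG00000003545; chromosome 7, 19302696 to 19310051, minus strand), whose short splice form accumulates with repeated activity, was lowest in PS19. Its reads numbered 394, 287 and 306 for WT, PS19 and PS19 Zbp1+/-, and its FPKM 3.66, 2.66 and 3.1. The ratio was 0.727 (0.622 to 0.849) for PS19 over WT and 1.16 (0.988 to 1.37) for PS19 Zbp1+/- over PS19, an interval that includes 1. The table gives 1 value per gene, so its splice forms were not analysed here. Per length, Fos was 3.21 times Fosb in WT (2.8 to 3.67), 4.32 times in PS19 (3.72 to 5.02) and 1.79 times in PS19 Zbp1+/- (1.49 to 2.14). The 3 intervals do not overlap, so the ratio of these paralogs differed between the libraries beyond counting error.

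Junb (ENSMUSG00000052837; chromosome 8, 84974484 to 84978718, minus strand), whose longest transcript has 1 exon, had FPKM values of 47.9, 33.7 and 41.8 in WT, PS19 and PS19 Zbp1+/-, from 1903, 1339 and 1524 reads. It was lowest in PS19, at 0.702 of WT (0.654 to 0.753), and had the largest ratio of the members for PS19 Zbp1+/- over PS19, 1.24 (1.15 to 1.34). It stayed below WT at 0.873 (0.816 to 0.934). Its annotated span shares 351 bases with Prdx2 on the opposite strand, which had ratios to WT of 0.765 in PS19 and 0.88 in PS19 Zbp1+/-. Where reads were counted without strand, those of the shared stretch cannot be told apart.

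The Egr proteins bind GC-rich sites through 3 zinc fingers, and Egr1 is the best studied of them in learning. Egr1 (ENSMUSG00000038418; chromosome 18, 34859823 to 34864984, plus strand) stood at FPKM 44.1 for WT and 34.4 for each of the PS19 libraries, from 3412, 2665 and 2440 reads. The ratio of the PS19 libraries to each other was 1.0 (0.946 to 1.06), and each was 0.78 of WT (0.741 to 0.82 for PS19). With total reads the ratio between the PS19 libraries was 0.878 (0.83 to 0.928). Egr3 (ENSMUSG00000033730; chromosome 14, 70077203 to 70082614, plus strand), a close paralog of Egr1, showed the same order, with FPKM levels of 32.1, 22.3 and 22.2, from 2437, 1697 and 1547 reads. Its ratio was 0.695 (0.653 to 0.74) for PS19 over WT and 0.996 (0.929 to 1.07) for PS19 Zbp1+/- over PS19, or 0.874 (0.815 to 0.937) with total reads.

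Egr4 (ENSMUSG00000071341; chromosome 6, 85511121 to 85513589, minus strand) had the lowest ratio of the members between PS19 and WT. Its reads numbered 1257, 795 and 819 for WT, PS19 and PS19 Zbp1+/-, at FPKM 33.9, 21.4 and 24.1. The ratio was 0.631 (0.577 to 0.69) for PS19 over WT, where 2.06% of all genes tested had a lower difference, and 1.13 (1.02 to 1.24) for PS19 Zbp1+/- over PS19. Egr2 (ENSMUSG00000037868; chromosome 10, 67535475 to 67542188, plus strand), known also as a myelination factor of Schwann cells, was the weakest member. WT gave 105 reads (FPKM 1.79), PS19 gave 86 (1.46) and PS19 Zbp1+/- gave 49 (0.911). A difference between WT and PS19 was not detectable at this depth, with a ratio of 0.817 (0.607 to 1.1). PS19 Zbp1+/- was 0.622 of PS19 (0.429 to 0.894) and 0.509 of WT (0.355 to 0.721). Of 821 genes with 70 to 110 reads in PS19, 38.9% were at 0.65 of PS19 or less in that library, as Egr2 was.

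**Figure D4:**
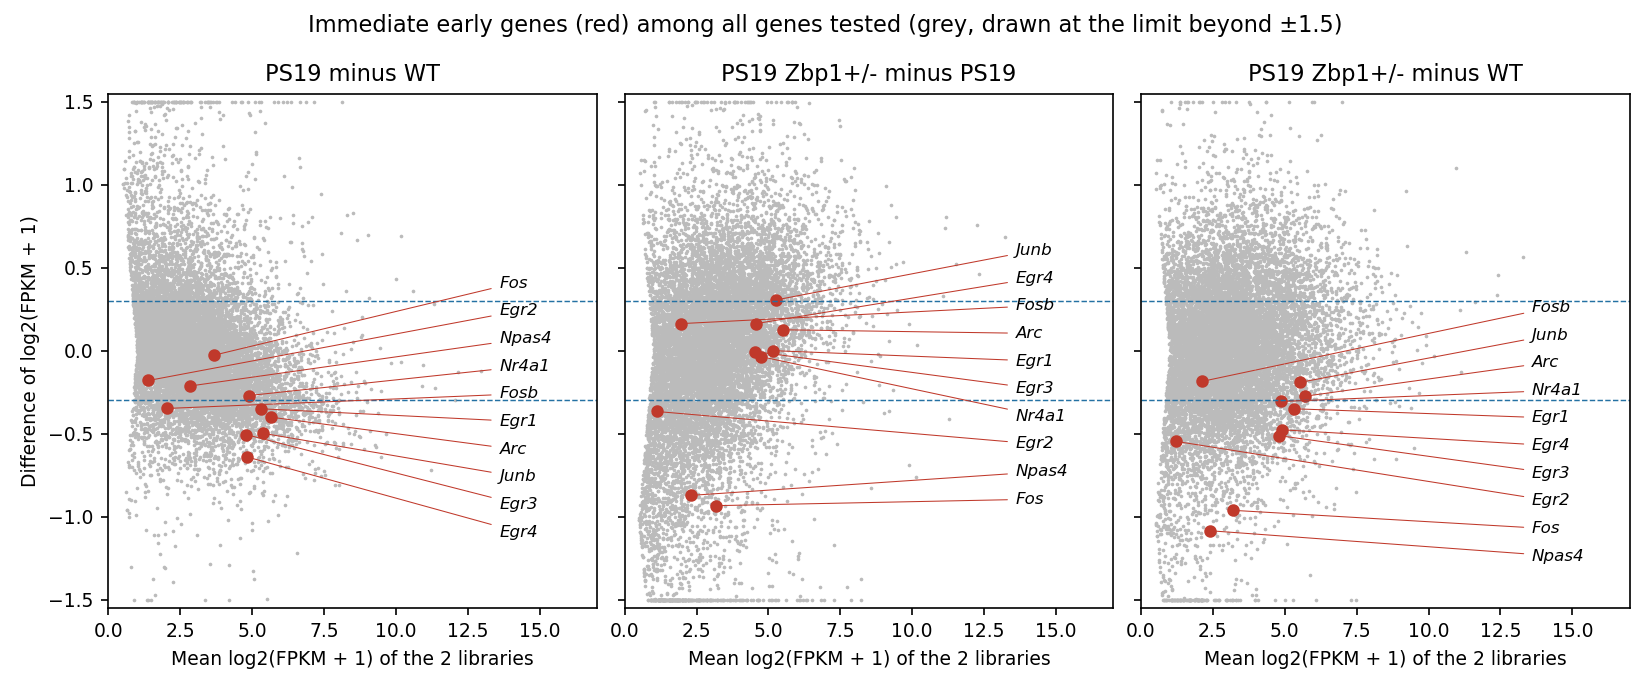
Difference of log2(FPKM + 1) against the mean level for the genes tested in each comparison (grey) with the 10 immediate early genes in red; dashed lines mark ±0.3 log2 units. Between PS19 and WT the red points lie from -0.64 to -0.03, and in the other panels Fos and Npas4 lie lowest of the members, at -0.93 and -0.87 in the middle one.

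Npas4 encodes a factor that responds to calcium in neurons more selectively than the other members do, and it shapes inhibitory synapses. Npas4 (ENSMUSG00000045903; chromosome 19, 4984355 to 4989971, minus strand) gave 378 reads for WT (FPKM 6.69), 319 for PS19 (5.63) and 136 for PS19 Zbp1+/- (2.62). With total reads the first of its ratios below has an interval that reaches 1.0. The ratio was 0.842 (0.723 to 0.98) for PS19 over WT, 0.466 (0.378 to 0.571) for PS19 Zbp1+/- over PS19 and 0.392 (0.32 to 0.478) for PS19 Zbp1+/- over WT. These last 2 were the lowest ratios of any member in those comparisons. Per length, Npas4 was 0.119 of Arc in WT (0.106 to 0.132), 0.133 in PS19 (0.118 to 0.149) and 0.0566 in PS19 Zbp1+/- (0.0472 to 0.0673).

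Nr4a1 encodes an orphan nuclear receptor, Nur77, that is induced by activity in neurons and by antigen receptors in lymphocytes. Nr4a1 (ENSMUSG00000023034; chromosome 15, 101254269 to 101274795, plus strand) is the longest member, with a span of 20527 bases. It had FPKM values of 31.7, 26.1 and 25.4 in WT, PS19 and PS19 Zbp1+/-, from 1919, 1584 and 1413 reads. The ratio was 0.824 (0.77 to 0.881) for PS19 over WT and 0.974 (0.906 to 1.05) for PS19 Zbp1+/- over PS19, or 0.855 (0.795 to 0.919) with total reads. Arc (ENSMUSG00000022602; chromosome 15, 74669083 to 74672570, minus strand) was at FPKM 56.3, 42.4 and 46.4 for those libraries, from 2969, 2241 and 2243 reads. PS19 was 0.753 of WT (0.713 to 0.796), and PS19 Zbp1+/- was 1.09 times PS19 (1.03 to 1.16) but 0.824 of WT (0.779 to 0.87). The interval of PS19 Zbp1+/- over PS19 was wholly above 1 for 3 members, Arc, Egr4 and Junb. Scaling by total reads turned Arc to 0.959 and Egr4 to 0.987, so the direction of these 2 depends on the scaling.

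The members are compact genes. Their annotated spans had a median of 5287 bases, against 25008 for the genes tested between PS19 and WT, and their longest GENCODE M21 transcripts had a median of 2.5 exons against 8. No other gene's transcript matched a member's longest transcript at 90% identity over 100 bases or more, the other Egr and Fos genes included. The pattern of the set, a median of -0.35 for PS19 minus WT and -0.41 for PS19 Zbp1+/- minus WT, was shared by others. The search covered 10669 other protein-coding genes with at least 100 reads in every library, and the lists of induced genes described below were left out of it. Of these 10669 genes, 782 (7.33%) lay as near to that pair of values as the median member did. The nearest over the 3 libraries were Srsf9, Gtpbp6, Pspc1, Cfap20 and Selenok, at distances of 0.005 to 0.013 log2 units.

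Other rapidly induced genes differed in both directions in PS19. Of 30 tested, 9 were lower than WT by at least 0.3 log2 units and 7 were higher, with a median of -0.15, against 16.3% lower, 16% higher and a median of -0.03 over all genes tested. The lowest were Nr4a2, the dopaminergic neuron factor related to Nr4a1, at -0.79 (FPKM 19.9, 11.1 and 18.3 for WT, PS19 and PS19 Zbp1+/-) and Ier5 at -0.59 (20.3, 13.2 and 19.3). The highest were Atf3, a stress factor induced by injury, at 0.96 (0.727, 2.36 and 0.352) and Zfp36, which destabilises inflammatory transcripts, at 0.57 (1.77, 3.12 and 1.06). In PS19 Zbp1+/- 13 of 29 were lower than WT and 1 was higher, with a median of -0.21, against 19.5% and 22.1% of all genes. With total reads 17 were lower and 1 higher, against 30.3% and 13.4%. Klf4, an endothelial and stem cell factor, was lowest at -1.65 (3.31, 3.07 and 0.373), followed by Arl4d at -1.57 (13.9, 14.7 and 4.02). Their PS19 levels were near those of WT. Fosl2, a further Fos paralog, was the 1 that was higher, at 0.52 (7.27, 5.77 and 10.9).

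Many slower genes of the activity response were also lower in PS19. Of 23 delayed and late response genes tested, 13 were lower than WT by at least 0.3 and 0 were higher, with a median of -0.31, against 16.3% and 16% of all genes. With TPM it was 5 lower and 1 higher with a median of -0.21, against 9.82% and 28.1%. Rasl11a was at -0.67 (FPKM 9.07 in WT and 5.35 in PS19) and Rem2, a regulator of calcium channels, at -0.59 (9.76 and 6.17). Pim1, a kinase gene, was highest at 0.17, within the 0.3 limit. In PS19 Zbp1+/- 11 of 23 were higher than in PS19 and 2 were lower, with a median of 0.30, against 25.9% and 23.9% of all genes. With total reads it was 8 higher and 2 lower with a median of 0.14, against 15.0% and 34.4%, and with TPM 7 and 4 with a median of 0.05, against 12.1% and 44.1%. Against WT 4 of 22 were lower and 6 higher, near the 19.5% and 22.1% of all genes. The median of the list was 0.04, or -0.08 with total reads and -0.11 with TPM. That of all genes was 0.01, -0.12 and -0.14 at those settings, so both shifted with the scaling. Nptx2, a secreted pentraxin that gathers AMPA receptors, was at FPKM 12.8, 9.97 and 25.2 for WT, PS19 and PS19 Zbp1+/-, and Lingo1 had 58.6, 47.3 and 119. Bdnf, the growth factor induced by Npas4 and CREB, had 7.8, 5.14 and 4.81, and Ptgs2, which encodes COX-2, had 5.91, 5.3 and 3.26. Bdnf was lower than WT by 0.3 log2 units or more in both PS19 libraries, and Ptgs2 in PS19 Zbp1+/-, its PS19 difference being -0.13.

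The signalling genes upstream showed no common direction in PS19. Of 34 genes for NMDA receptors, calcium channels, kinases and promoter-bound factors, 7 were lower than WT by at least 0.3 and 4 were higher, with a median of 0.02, near the 16.3% and 16% of all genes. With TPM it was 3 lower and 6 higher, against 9.82% and 28.1%. Map2k1, the kinase that activates ERK, was lowest at -0.52 (FPKM 98.3, 68.5 and 93.2 for WT, PS19 and PS19 Zbp1+/-), then the calcineurin subunit gene Ppp3ca at -0.48 (188, 135 and 149). Rps6ka1 was highest at 0.67 (3.39, 5.96 and 5.53), then the acetyltransferase gene Ep300 at 0.42 (4.56, 6.44 and 6.97). In PS19 Zbp1+/- 3 of 34 were lower than WT and 11 were higher, with a median of 0.15, against 19.5% and 22.1% of all genes. With total reads it was 5 lower and 4 higher with a median of 0.01, against 30.3% and 13.4%. Atf1, a CREB relative, was lowest there at -0.93 (5.47, 5.2 and 2.4), and Mef2d was highest at 0.71 (32.8, 34.7 and 54.4).

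Partners and co-repressors of the members were measured beside them. Of 12 genes, 4 were lower in PS19 than in WT by at least 0.3 and 2 were higher, with a median of -0.19. The shares of all genes tested were 16.3% lower and 16.0% higher. With TPM 2 were lower and 3 higher with a median of -0.14, against 9.82% and 28.1%. The counts of higher genes are near those shares. Nab2, an Egr-induced co-repressor of Egr proteins, was lowest at -0.63, with FPKM values of 12.6, 7.77 and 11.4 in WT, PS19 and PS19 Zbp1+/-. Jund, a Jun partner of Fos, followed at -0.39 (42.9, 32.6 and 45.6). Arnt was highest at 0.56 (4.23, 6.73 and 5.38). Arnt2, the dimer partner of Npas4 in neurons, was higher at 0.35 (26.8, 34.4 and 50.6), where Npas4 was at -0.21.

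**Figure D5:**
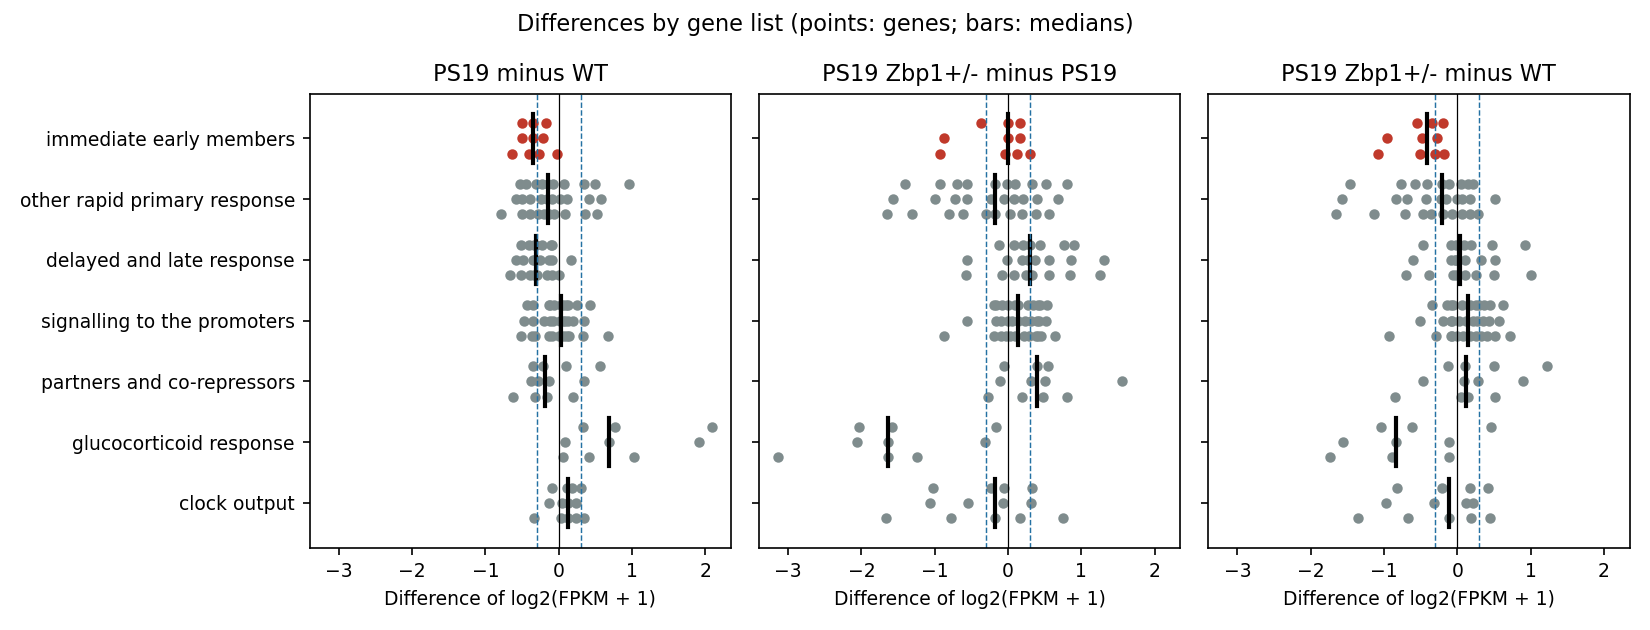
Difference of log2(FPKM + 1) for each tested gene of 7 lists in the 3 comparisons, with the median of each list as a black bar and dashed lines at ±0.3 log2 units. The immediate early genes (red) lie at or below 0 between PS19 and WT, where the late response genes have a median of -0.31 and the glucocorticoid response genes one of 0.69; the glucocorticoid list has a median of -1.64 between PS19 Zbp1+/- and PS19.

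Other gene groups also differed between the libraries, and their part in the members' differences was not tested. Of 9 glucocorticoid response genes, 7 were higher in PS19 than in WT by at least 0.3 and 0 were lower, with a median of 0.69. The shares of all genes tested were 16.0% and 16.3%. The count was also 7 with total reads and TPM, against 17.9% and 28.1% of genes. In PS19 Zbp1+/- 8 of 9 were lower than in PS19, against 23.9% of genes, with a median of -1.64. Total reads and TPM made it 9 of 9, against 34.4% and 44.1%. The FPKM of the list summed to 107, 158 and 51.2 for WT, PS19 and PS19 Zbp1+/-. Hormone levels are not given in the sources used here. Sgk1, an ion transport kinase, had 45, 56.7 and 12.9 and Tsc22d3, which encodes GILZ, had 25.8, 27.3 and 8.11. Both were level or higher in PS19 and low in PS19 Zbp1+/-. The highest of the list in PS19 minus WT were Plin4 at 2.09 (1.95, 11.6 and 0.427) and Cdkn1a at 1.92 (2.72, 13.1 and 2.44). Fkbp5, at 7.84, 8.18 and 7.17, stayed within the 0.3 limit in every comparison. Zbtb16, at 9.41, 16.8 and 13.3, was above WT in both PS19 libraries. Clock genes were lower than PS19 by at least 0.3 for 5 of 13 in PS19 Zbp1+/- and higher for 3, against 23.9% and 25.9% of all genes, and with total reads 7 were lower and 1 higher, against 34.4% and 15.0%. Ciart was at FPKM 6.72, 8.54 and 2.01, and Arntl, which encodes the clock activator BMAL1, at 3.2, 2.34 and 4.61.

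The neuronal label rests on what these genes are known for, since bulk RNA does not show which cells the reads came from. Fewer cells of a type and less RNA per cell cannot be told apart here. Beside the counts below, 16.3% of all genes tested were lower and 16.0% higher in PS19 than in WT by at least 0.3. In PS19 Zbp1+/- 19.5% were that much lower than WT. Of 5 excitatory neuron markers, 2 were lower in PS19 than in WT by at least 0.3 and 0 higher, and their FPKM summed to 1410, 1103 and 1806 for WT, PS19 and PS19 Zbp1+/-. Nrgn, a calmodulin-binding protein gene, had FPKM values of 780, 522 and 913, Camk2a had 346, 348 and 458, and Prox1, a marker of dentate granule cells, had 8.76, 9.51 and 5.2. Inhibitory neuron markers summed to 106, 120 and 115. Microglia markers summed to 76.5, 192 and 90.3, with 4 of 6 higher in PS19 than in WT, and astrocyte markers to 190, 930 and 205, with 4 of 4 higher. Oligodendrocyte markers summed to 583, 1032 and 368, with 4 of 4 higher in PS19 and 4 of 4 lower than WT in PS19 Zbp1+/-. Endothelial markers summed to 48.3, 47.6 and 58.3. No marker of these lists was at 0 in any library, and the part of these shifts in the members' values was not tested.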

How the data were processed

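RNA-seq of mouse hippocampus was deposited as 1 table of FPKM values with 1 column per sample (WT, PS19, PS19 Zbp1+/-). Per the submitters' processing notes, Trim Galore 0.6.5, STAR 2.5.3a, featureCounts 2.0.4 and mm39 were used, with no role stated. Gene positions in the table nevertheless equal those of GENCODE M21 (GRCm38) in 98.3% of the 54409 IDs shared with it, so positions are given as GRCm38. Strandedness, sex and pooling are not given in the sources used here.

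Each deposited FPKM value times gene length was a whole multiple of 1 step (within 0.02) in 100% of values, which gave whole reads. The implied library sizes were 17253479, 17287957 and 15826984 reads for WT, PS19 and PS19 Zbp1+/-, against totals of 16746085, 16400328 and 17109734, so the authors' scaling differs from the total. Differences are of log2(FPKM + 1). Protein-coding genes that reached an FPKM of 1 in one or both of the libraries compared were tested. Lower and higher mean a difference of 0.3 log2 units or more. Read ratios per implied library size have exact Clopper-Pearson 95% intervals that cover counting error only, with no molecular identifiers named in the labels. No count test was run, with 1 library per genotype.

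Members and gene lists were chosen with earlier results of these data known. Named were all 10 members, from each other list genes among the 2 lowest and 2 highest in PS19 minus WT or PS19 Zbp1+/- minus WT, and the 5 genes nearest to the members' median pair. The bands of reads and FPKM that set members beside genes of like level were chosen with the members' values known. The procedure was tested on simulated data. Computation used scipy 1.17.1, numpy 2.4.6 and pandas 2.3.3 under Python 3.11.15, with matplotlib 3.10.9 and BLAST 2.17.0. Alternatives were pseudocounts of 0.1 and 0.5, 2 other filters, scaling by total reads, to TPM or to a median of 0, thresholds of 0.2 and 0.5, the mean, and leaving out each member. Counts of the other lists and of 2-fold differences under total reads and TPM were added after seeing the data.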

Additional observations from a re-analysis of the deposited data

How the results depend on the processing

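No paired analysis was possible because each genotype has 1 library. Between PS19 and WT the members' median lay between -0.38 and -0.25 under every alternative. In that comparison 4 to 8 members were lower except at a threshold of 0.5, which left 2. The share of all genes moved with the setting. It was 26.8% at a threshold of 0.2 (8 members), 9.82% with TPM (4 members) and 4.73% at 0.5 (2 members). For PS19 Zbp1+/- minus WT, the median moved to -0.56 with total reads and -0.58 with TPM. A threshold of 0.5 left 4 lower members there, against 9.59% of genes. For PS19 Zbp1+/- minus PS19, the median moved to -0.19 with total reads, -0.29 with TPM and -0.15 as a mean. The count of higher members in that comparison went from 1 to 0 with total reads, TPM, a median of 0 and a threshold of 0.5. The shares of all genes that were higher were 15.0%, 12.1%, 22.8% and 13.2% at these settings. Total reads and TPM shifted the median of all genes in that comparison from 0.04 to -0.12 and -0.23, and relative to that median the members stood at -0.04 as deposited, -0.07 and -0.06. With total reads the ratio of PS19 Zbp1+/- to PS19 turned from above to below 1 for Egr4 (0.987) and Arc (0.959). Leaving out 1 member at a time gave medians of -0.350 to -0.348 for PS19 minus WT, -0.01 to 0.00 for PS19 Zbp1+/- minus PS19, and -0.48 to -0.35 for PS19 Zbp1+/- minus WT. Depth limits Egr2 most, with 49 to 105 reads.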
